A study of Mus musculus with 21 samples.

Results

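Collagens are the main structural proteins of the extracellular matrix, and the RNA of their chains was followed here in tuft cells, a rare chemosensory type of epithelial cell. The genes are the 44 protein-coding mouse genes whose symbol has the form Col, a type number, the letter a and a chain number, out of 43432 gene identifiers counted in each of 21 libraries. The rule that picks them reads the symbol and no measured value. RNA was sequenced from cells of naive mice of the C57BL6.Il25(Flare25/Flare25) line, which carry a fluorescent reporter in the Il25 gene on both alleles, in all groups alike. Sorting kept live epithelial cells (EPCAM on, CD45 off), and those in which the reporter shone were taken as tuft cells of small intestine (n = 3), colon (n = 4), gall bladder (n = 3), thymus (n = 4) and trachea (n = 4). Small intestine cells without reporter signal, which are epithelium depleted of tuft cells, made up the sixth group (n = 3) and are called non-tuft cells. Mice were males of 12 weeks with 1 mouse a library, except that each trachea library pooled 4 mice of 12 to 16 weeks and pools 3 and 4 were female.

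A collagen molecule is a helix of 3 chains, which are hydroxylated and wound together in the endoplasmic reticulum before secretion. Fibrillar collagens (such as types I, II, III and V) form the fibrils of connective tissue and are made chiefly by fibroblasts and related cells. Fibril-associated collagens decorate those fibrils, type IV forms the sheet-like network of basement membranes, type VI forms beaded filaments next to them, and types XV and XVIII, the multiplexins, link basement membranes to the tissue beneath. Transmembrane collagens stay at the cell surface, where type XVII anchors basal epithelial cells.

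Cell number and preparation bear on every comparison. The number of sorted cells ran from 130 to 453 in trachea, from 1350 to 1900 in thymus, from 1750 to 2700 in gall bladder, from 13500 to 16000 in colon, from 35000 to 36000 in small intestine tuft and from 52000 to 57000 in non-tuft libraries. Thymus was digested with Liberase, trachea with Dispase and trypsin, and small intestine, colon and gall bladder were all treated with EDTA, so for thymus and trachea tissue and preparation cannot be told apart. Total counts were 25739248 to 73574745 a library, and all levels are given as CPM, counts scaled to library size by the TMM method. In these units 3 counts corresponded to between 0.0423 and 0.107 CPM a library, a floor that covers counting error only, since the RNA was amplified without molecular identifiers. The summed level of 10 tuft markers, Pou2f3 and Trpm5 among them, was 3326 to 15904 CPM in the 18 tuft libraries and 135 to 242 CPM in the non-tuft libraries. It differed between tuft tissues, at 3326 to 4299 CPM in colon, 4399 to 5455 CPM in thymus and 8328 to 13134 CPM in trachea. Small intestine tuft libraries held 12564 to 15762 CPM and gall bladder libraries 14661 to 15904 CPM. Libraries are bulk samples, so fewer cells of a type and less RNA per cell cannot be told apart. P-values measure the spread between libraries, which for 17 of them is the spread between single mice. Comparisons of tuft tissues fit 1 spread a gene over all 5 tissues, although the tissues differed in it. For genes at 5 CPM or more the median ratio of SD to mean was 0.162 in small intestine tuft, 0.229 in colon and 0.298 in thymus. It was 0.552 in gall bladder and 0.621 in trachea.

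All 44 chains had at least 1 count somewhere, and 4 of them (Col9a3, Col15a1, Col16a1 and Col20a1) had counts in every library. The highest group mean was under 1 CPM for 6 chains and at least 5 CPM for 27. The summed level of the 44 chains was 34.7 to 40.3 CPM in non-tuft cells, 496 to 620 CPM in small intestine tuft, 136 to 195 CPM in colon tuft, 817 to 1210 CPM in gall bladder tuft, 484 to 514 CPM in thymus tuft and 140 to 237 CPM in trachea tuft. Every tuft library thus lay above every non-tuft library. The makeup of that sum differed between tissues. Col15a1 alone took 77.5 to 82.1% of it in small intestine tuft, 55.3 to 66.2% in colon tuft and 81.8 to 85.6% in gall bladder tuft, while in trachea tuft Col9a3 took 28.5 to 56.9%. Without Col15a1 and Col9a3 the sum in small intestine tuft was 14.5 to 27.2 CPM, below the 30.5 to 35.0 CPM of non-tuft cells, and in thymus tuft it was still 456 to 485 CPM. Thymus libraries spread their collagen RNA over many chains, with 29 to 34 of the 44 at 1 CPM or more, against 7 to 12 in the other 17 libraries. For comparison, the share of all protein-coding genes at 1 CPM or more was 60.5 to 64.2% in thymus and 47.6 to 55.6% elsewhere. The group mean was highest in thymus tuft for 29 chains (65.9%, against 26.8% of the 18652 protein-coding genes with counts), in gall bladder tuft for 8, in trachea tuft for 4, in small intestine tuft for 2 and in colon tuft for 1.

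**Figure D1:**
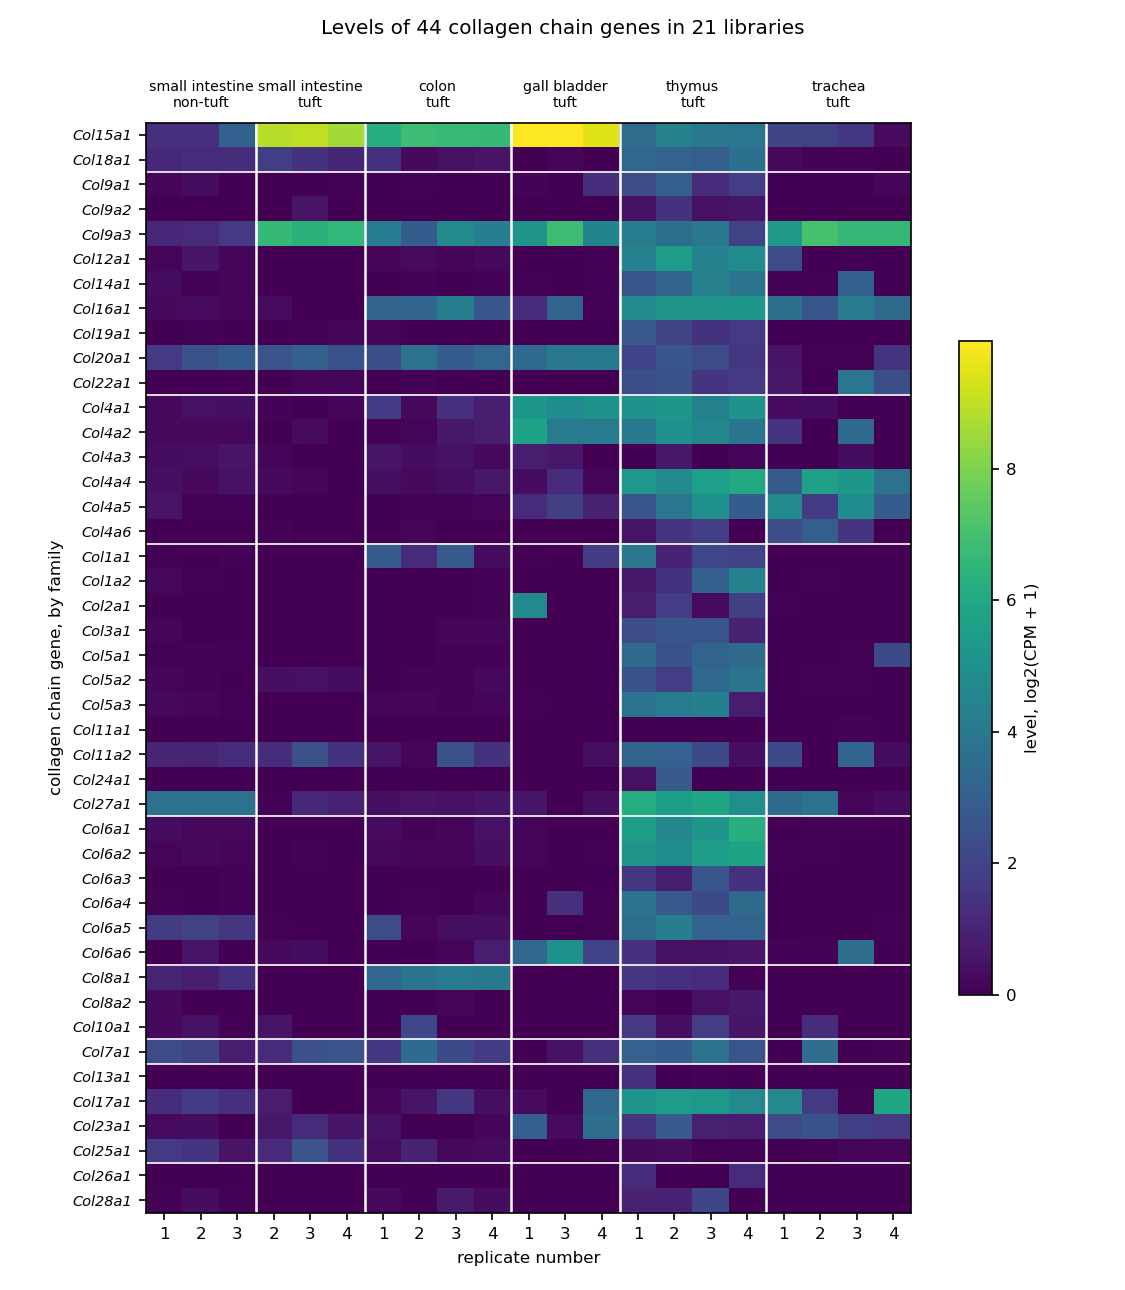
Level of each of the 44 collagen chain genes (rows, grouped by family between white lines) in each of the 21 libraries (columns, by group and replicate number), as log2(CPM + 1) on the colour scale. Col15a1 is the brightest row in small intestine, colon and gall bladder tuft cells, and the thymus libraries show signal in rows of every family.

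**Figure D2:**
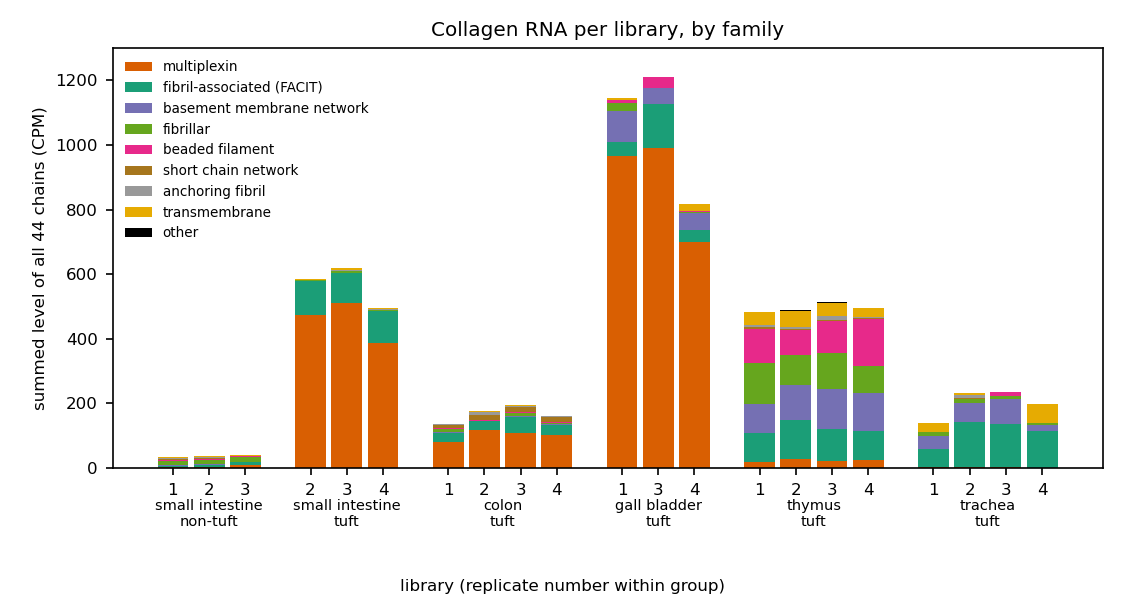
Summed CPM of all 44 chains in each library, stacked by family from 0. The multiplexin part, nearly all Col15a1, fills most of the small intestine, colon and gall bladder tuft bars, while the thymus bars are split among many families.

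Col15a1 encodes the single chain of type XV collagen, a multiplexin that sits where basement membranes meet fibrils and whose end can be released as an inhibitor of vessel growth. The gene lies on the plus strand (ENSMUSG00000028339, GRCm38 chromosome 4, 47208161 to 47313167). The 250 bases before its RefSeq start are shown because this gene carried most of the collagen RNA of digestive tract tuft cells (GRCm38.p6, chr4:47207762-47208011, plus strand, no base in capitals).
Col15a1 upstream: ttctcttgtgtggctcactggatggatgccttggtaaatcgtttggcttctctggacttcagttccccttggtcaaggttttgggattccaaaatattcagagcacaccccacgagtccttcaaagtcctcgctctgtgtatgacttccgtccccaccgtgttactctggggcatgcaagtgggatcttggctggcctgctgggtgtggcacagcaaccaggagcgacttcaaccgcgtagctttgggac
The window was searched on both strands for the octamer ATGCAAAT, the GC box GGGCGG, the CCAAT box CCAAT and the TATA box TATAAA, which do not overlap one another here, and held none of them. Of 32851 mouse windows of this length, 1.6% held the octamer, 32.7% the GC box, 33.8% the CCAAT box and 12.4% the TATA box.

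Col15a1 had the highest CPM of all chains in all 10 tuft libraries of the digestive tract. Its levels were 470, 509 and 384 CPM in small intestine tuft libraries 2, 3 and 4, and 77.3, 116, 108 and 101 CPM in the 4 colon libraries. Gall bladder libraries 1, 3 and 4 stood at 965, 990 and 699 CPM. In thymus the 4 values were 10.7, 19.8, 14.6 and 14.2 CPM, in trachea 3.20, 2.95, 2.07 and 0.212 CPM, and in non-tuft cells 1.53, 1.53 and 7.62 CPM. The 5 tuft tissues did not overlap with one another in any library, whereas the non-tuft range ran into the trachea range. Within the small intestine the log2 fold of tuft over non-tuft cells was 7.03 ± 0.63 (SE; adjusted p = 1.53e-05, edgeR quasi-likelihood test with Benjamini-Hochberg adjustment). Among tuft tissues, small intestine and gall bladder did not pass the test against each other (log2 fold -0.97 ± 0.48, adjusted p = 0.181). Gall bladder exceeded colon by 3.17 ± 0.47, small intestine exceeded colon by 2.20 ± 0.45, colon exceeded thymus by 2.62 ± 0.44 and thymus exceeded trachea by 2.95 ± 0.45 on the log2 scale, with the least certain of these 4 steps at adjusted p = 0.00326 in the same edgeR fit. In all, 9 of the 10 tissue pairs were called. Per kilobase of transcript, which allows genes to be compared with each other, Col15a1 stood at 171 CPM in gall bladder, 87.8 in small intestine, 19.4 in colon, 2.87 in thymus and 0.408 in trachea tuft.

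Col18a1 encodes the related multiplexin of type XVIII, a proteoglycan of epithelial and vascular basement membranes, and it was highest in thymus. Its values were 9.21, 8.02, 7.10 and 11.4 CPM in thymus and 2.64, 1.68 and 1.08 CPM in small intestine tuft. Every gall bladder and trachea library was at or under 0.168 CPM, and colon library 1 stood at 1.64 CPM against 0.179 to 0.424 CPM in the other colon libraries. Col18a1 was higher in thymus than in the mean of the other 4 tissues (log2 fold 5.26 ± 0.77, adjusted p = 2.46e-05, edgeR). It was lower in gall bladder (adjusted p = 0.0223) and in trachea (adjusted p = 0.0206), and both of these calls were lost under an alternative, in gall bladder without library 1 or 4 and in trachea without the 2 female pools or with limma voom. In the small intestine tuft and non-tuft cells, at 1.80 ± 0.789 and 1.33 ± 0.122 CPM (SD, n = 3 each), were not called different.

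**Figure D3:**
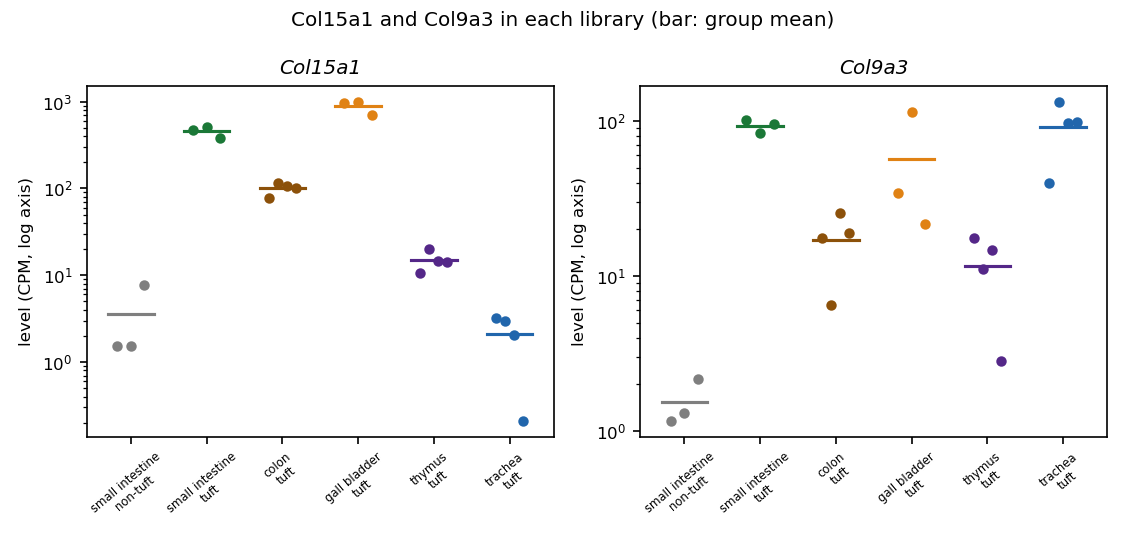
CPM of Col15a1 (left) and Col9a3 (right) in each library, on log axes, with points for libraries and bars for group means. Col15a1 falls into separate bands by tissue from gall bladder (699 to 990) to trachea (0.212 to 3.20), while Col9a3 is near 100 in small intestine and in 3 of 4 trachea libraries.

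Col9a3 encodes 1 of the 3 different chains of type IX collagen, a fibril-associated collagen best known from cartilage (ENSMUSG00000027570, GRCm38 chromosome 2, 180597790 to 180622189, plus strand). It was at 101, 83.8 and 95.3 CPM in small intestine tuft cells and at 1.17, 1.31 and 2.16 CPM in non-tuft cells. Trachea libraries held 40.1, 133, 97.0 and 98.7 CPM, gall bladder libraries 34.6, 114 and 21.6 CPM, colon libraries 17.7, 6.55, 25.7 and 18.9 CPM and thymus libraries 17.6, 11.1, 14.6 and 2.85 CPM. Small intestine tuft libraries lay above every colon, thymus and non-tuft library, and gall bladder and trachea values spread around them. The log2 fold of tuft over non-tuft cells was 5.96 ± 0.25 (SE; adjusted p = 9.69e-08, edgeR). Small intestine and trachea were not called different (log2 fold -0.00 ± 0.61), nor were small intestine and gall bladder (0.69 ± 0.66, adjusted p = 0.509), nor colon and thymus (0.43 ± 0.57, adjusted p = 0.646). Each of small intestine and trachea was higher than each of colon and thymus, with adjusted p between 0.00178 and 0.016. Against the mean of the other 4 tissues Col9a3 was called higher in small intestine (1.5 ± 0.46, adjusted p = 0.0254) and trachea (1.51 ± 0.42, adjusted p = 0.00948), and lower in colon (-1.56 ± 0.51, adjusted p = 0.0375) and thymus (-2.10 ± 0.53, adjusted p = 0.00376). The small intestine call was lost when any of its libraries was left out (adjusted p up to 0.113), the trachea call without the 2 female pools (0.069), and the colon call under 10 of the left-out libraries (up to 0.133).

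The partner chains of type IX were sparse outside the thymus. Col9a1 was at or under 0.265 CPM in every non-thymus library other than gall bladder library 4 (1.46 CPM), and Col9a2 at or under 0.450 CPM in every one. In thymus Col9a1 was at 4.04, 6.94, 1.27 and 2.50 CPM and Col9a2 at 0.416, 1.73, 0.380 and 0.484 CPM, both called higher there (adjusted p = 2.61e-04 and 7.98e-04, edgeR). Per kilobase the ratio of Col9a3 to Col9a1 was 1.44 to 14.5 in the 4 thymus libraries and 880 in the 1 trachea library where both chains exceeded 3 counts. It was 6.20 and 16.4 in 2 non-tuft libraries and 18.6 in 1 gall bladder library, so these lay in or near the thymus range. The annotation places 234 bases of Col9a3 exons (6.07% of them) over exons of Tcfl5 on the opposite strand. Tcfl5 had 181 counts over all libraries, against 39475 for Col9a3.

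Within the small intestine, where tuft and non-tuft cells of the same organ and preparation were set side by side, 15 of the 44 chains had enough counts to be tested. Besides Col15a1 and Col9a3, which were 2 of 15 called higher against 13% of all 16063 genes tested, 3 chains were called lower against 13.9% of all genes. A gene is called where its fold reaches 2 and its adjusted p stays below 0.05. Col27a1, a fibrillar chain best known from cartilage, had the highest CPM of all chains in non-tuft cells, at 12.9, 12.8 and 12.5 CPM and stood at 0.0677, 1.18 and 0.880 CPM in tuft cells (log2 fold -4.11 ± 0.67, adjusted p = 8.12e-04, and adjusted p = 0.0688 with all 21 libraries in the fit). Col6a5, a chain of type VI, was at 2.30, 2.82 and 2.00 CPM in non-tuft and at most 0.0451 CPM in tuft cells (adjusted p = 2.22e-04, edgeR). Col8a1, a chain of the short-chain network collagen type VIII, was at 1.02, 0.796 and 1.54 CPM in non-tuft cells and had 1 count in the 3 tuft libraries together (adjusted p = 8.53e-04, edgeR). None of these 3 chains overlapped between tuft and non-tuft libraries, which adds no support, since they were picked by the same difference. The share of all genes without overlap is not given, here or for other chains. Of the other 10 tested chains, Col17a1, Col20a1, Col7a1, Col25a1, Col11a2, Col18a1 and Col5a2 among them, none was called, and each had a mean under 6 CPM in both groups. The median log2 fold of the 15 was 0.49, beside -0.03 over all genes tested, and with group means held at or above 3 counts it was 0.44, beside -0.09. Markers of other cells moved in this comparison as well. Thymocyte markers were called higher in tuft cells in 4 of 4 tested (summed level 20.9 to 32.2 CPM against 2.46 to 5.63 CPM), endothelial markers in 3 of 5 (35.1 to 47.5 against 5.23 to 5.82 CPM, with Cdh5 and Emcn at 0 in tuft cells), myeloid markers in 2 of 5 (21.6 to 50.8 against 20.0 to 24.7 CPM) and fibroblast markers in 1 of 3. Smooth muscle and pericyte markers were called lower in 2 of 4 (3.84 to 5.75 against 8.92 to 13 CPM). Their part in the collagen values was not tested.

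Type IV collagen has 6 chains, encoded in 3 head-to-head pairs that share a promoter region: Col4a1 with Col4a2, Col4a4 with Col4a3, and Col4a6 with Col4a5. The first pair makes the network found in nearly all basement membranes, and the other chains make networks of specialised ones. The starts of Col4a1 and Col4a2 overlap by 22 bases (GRCm38.p6, chr8:11312805-11312826, plus strand), shown with the GC box in capitals. The starts of Col4a4 and Col4a3 lie 71 bases apart (chr1:82586850-82586920, read on the minus strand, the strand of Col4a4), shown whole and with none of the 4 motifs. Both are given because in gall bladder and thymus Col4a1 and Col4a2 were both present, whereas Col4a4 was present where Col4a3 was nearly absent.
Col4a1 and Col4a2 shared start: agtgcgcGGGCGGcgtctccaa
Col4a4 to Col4a3: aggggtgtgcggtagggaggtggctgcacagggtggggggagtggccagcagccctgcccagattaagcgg
The GC box occurred in 4.09% of the 32851 RefSeq segments of 22 bases that begin at a start and in 20.7% of those of 71 bases that end before one. The Col4a6 and Col4a5 starts lie 1308 bases apart on chromosome X.

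Col4a1 and Col4a2 were both high in gall bladder and thymus tuft cells. Col4a1 was at 36.8, 27.9 and 33.3 CPM in gall bladder and 30.5, 37.1, 19.7 and 32.7 CPM in thymus, and at or under 2.31 CPM in every other library. Col4a2 was at 54.1, 16.5 and 16.7 CPM in gall bladder and 15.4, 31.8, 22.6 and 13.7 CPM in thymus. In trachea Col4a2 was at 1.94, 0, 10.0 and 0 CPM, and elsewhere at or under 0.686 CPM. Neither chain overlapped between these 2 tissues and the rest, which adds no support, since the tissues were set together by these same levels. Against the mean of the other 4 tissues Col4a1 was higher by 5.48 ± 0.68 in gall bladder (adjusted p = 1.02e-05) and by 5.48 ± 0.67 in thymus (adjusted p = 2.85e-06) on the log2 scale, and Col4a2 was higher in both as well (adjusted p = 0.00294 and 0.00253, edgeR). Between gall bladder and thymus the log2 fold was -0.01 ± 0.96 for Col4a1 and 0.37 ± 1.46 for Col4a2, neither of which passed the test. Per kilobase the ratio of Col4a1 to Col4a2 had a median of 1.65 in gall bladder (range 0.665 to 1.94) and 1.53 in thymus (0.849 to 2.33), with medians of 1.71 in colon and 1.76 in non-tuft cells at much lower levels. In trachea library 1, the only trachea library with more than 3 counts of each, the ratio was 0.113, and library 3 held Col4a2 with no counts of Col4a1. In small intestine tuft both chains were called lower than in the other tissues (adjusted p = 0.00188 for Col4a1 and 0.0333 for Col4a2), the latter not without small intestine library 2 (0.130) or 4 (0.139).

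Markers of vessels and of connective tissue were read beside these values, since endothelium and pericytes are rich in both chains. The 10 endothelial markers summed to 130 to 520 CPM in gall bladder and 47.6 to 139 CPM in thymus, against 5.23 to 190 CPM elsewhere. Of the 6 tested, 3 were called higher in gall bladder (50%, beside 12.7% of all genes) and 1 in thymus (16.7%, beside 26.8%). In gall bladder most of that sum was Tek (237 CPM on average) and Tie1 (41.5 CPM), and the endothelial markers Kdr, Emcn and Cldn5 had no counts in any gall bladder library. The 9 smooth muscle and pericyte markers summed to 2.86 to 24.6 CPM in gall bladder and to 581 to 1130 CPM in thymus, where Rgs5 made up 735 CPM on average. The part of such cells in the gall bladder and thymus values was not tested.

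The pair of Col4a3 and Col4a4 was uncoupled. Col4a4 was at 38.8, 24.9, 48.4 and 65.2 CPM in thymus and at 6.06, 50.8, 37.5 and 12.3 CPM in trachea, and at or under 1.43 CPM in the other 13 libraries. Col4a3, its neighbour and partner in the same molecule, was at or under 0.760 CPM in all 21 libraries. Col4a4 was higher than in the mean of the other tissues in thymus (log2 fold 5.79 ± 0.61, adjusted p = 4.88e-07) and in trachea (4.71 ± 0.59, adjusted p = 5.59e-06, edgeR). Thymus and trachea were not called different (0.87 ± 0.81, adjusted p = 0.456), and Col4a3 was called in no comparison. Where both chains exceeded 3 counts the ratio of Col4a4 to Col4a3 per kilobase was 34.6 and 494 in 2 thymus libraries and 129 in 1 trachea library, and between 0.282 and 2.28 in the other groups. The 563 bases of Col4a3 exons that overlap an opposite-strand transcript do not involve Col4a4.

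Col4a5, another chain of the specialised networks, was high in the same tissues as Col4a4. It was at 5.17, 13.9, 30.9 and 6.56 CPM in thymus and 26.0, 2.35, 27.3 and 6.39 CPM in trachea. Gall bladder libraries held 1.29, 2.72 and 0.888 CPM, colon libraries at most 0.101 CPM, and the 3 small intestine tuft libraries no counts. Counting a group at 0 as 3 counts over its libraries, Col4a5 was at least 590-fold higher in thymus and at least 648-fold higher in trachea than in small intestine tuft. It was called higher in thymus (adjusted p = 7.81e-06) and in trachea (adjusted p = 9.64e-06, edgeR) than in the mean of the others. Its neighbour Col4a6 was at 0.433, 1.86, 2.63 and 0 CPM in thymus and 4.07, 7.11, 1.79 and 0 CPM in trachea, and at or under 0.135 CPM elsewhere. Col4a6 was called higher in trachea (adjusted p = 0.00225, and 0.106 with limma voom) and in thymus (adjusted p = 0.0113, and 0.0568 without thymus library 3). Per kilobase the ratio of Col4a5 to Col4a6 was 7.60 to 12.2 in 3 thymus libraries and 0.337 to 15.5 in 3 trachea libraries.

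**Figure D4:**
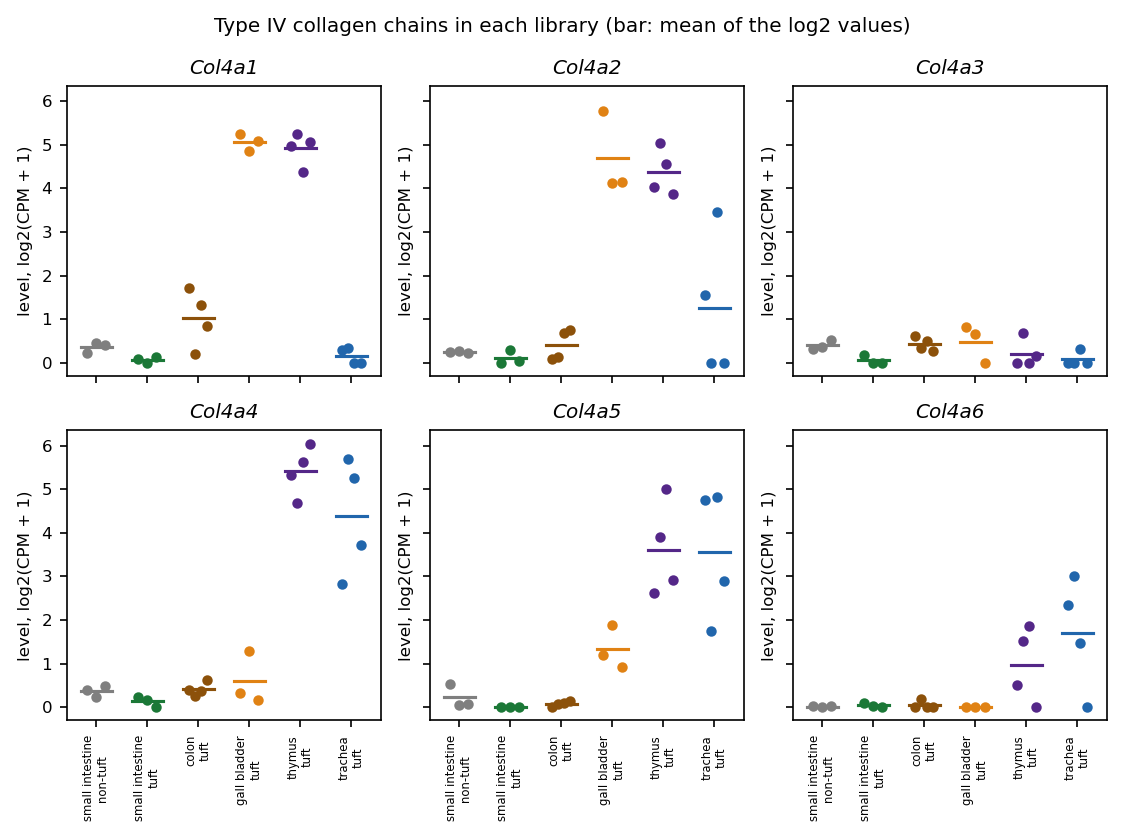
Levels of the 6 type IV chains in each library as log2(CPM + 1), on 1 common vertical scale, with points for libraries and bars for the mean of the log2 values. Col4a1 and Col4a2 are high in gall bladder and thymus, Col4a4 and Col4a5 in thymus and trachea, and Col4a3 is near 0 in every group.

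The thymus stood apart in the number of chains. Of 39 chains with enough counts in the 18 tuft libraries, 29 were called higher in thymus than in the mean of the other 4 tissues, against 26.8% of all 19850 genes tested, and 2 (Col15a1 and Col9a3) were called lower, against 5.64%. Several of the 39 had enough counts through thymus alone, such as Col3a1, Col5a3 and Col6a3, at or under 0.162 CPM elsewhere. The set tested thus depends in part on thymus, for chains and for all genes. Without a filter on low counts, 33 of 44 chains were called higher, against 26.2% of all genes. The 29 comprised 8 of 9 tested fibrillar chains, 7 of 9 fibril-associated, 5 of 6 type IV and 5 of 6 type VI chains, along with Col8a1, Col17a1, Col18a1 and Col28a1. The median log2 fold was 5.59 over the 39 chains and 0.33 over all genes tested, or 4.88 and 0.15 with group means held at or above 3 counts. When each library was left out in turn between 28 and 33 chains were called higher, against 21.2 to 28% of all genes. Thymus was higher than each of the other 4 tissues singly for 11 chains, Col1a2, Col3a1, Col5a2, Col5a3, Col6a1, Col6a2, Col6a3, Col6a5, Col12a1, Col19a1 and Col27a1, against 6.19% of all genes, and in no other tissue was a chain higher than in each of the remaining 4 (1.03% of all genes were in small intestine, 0.62% in colon, 0.927% in gall bladder and 1.82% in trachea). Without thymus library 2 the number was 7, all in thymus. Without the trachea libraries, and so against 3 other tissues, it was 18, of which 16 were in thymus and 2 in other tissues, and with limma voom it was also 18 with 16 in thymus.

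The 10 tissue pairs, which reuse the same libraries, gave these counts. Of the 39 chains, thymus was higher than small intestine in 25 (17.4% of all genes) and lower in 3 (8.27%), higher than colon in 25 (18.1%) and lower in 1 (7.5%), higher than gall bladder in 23 (20.9%) and lower in 2 (9.74%), and higher than trachea in 21 (20.7%) and lower in 1 (7.24%). The single chain that was lower in thymus than in colon was Col15a1, and the single chain lower in thymus than in trachea was Col9a3. Trachea was higher than small intestine in 9 (13.1% of all genes) and lower in 6 (14.7%), higher than colon in 9 (12.7%) and lower in 8 (14.3%), and higher than gall bladder in 5 (11.6%) and lower in 6 (12.2%). The pairs within the digestive tract differed in fewer chains. Gall bladder was higher than small intestine in 5 (7.21% of all genes) and lower in 3 (7.54%), gall bladder was higher than colon in 7 (8.98%) and lower in 3 (9.25%), and colon was higher than small intestine in 6 (4.46%) and lower in 2 (3.9%).

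Markers of other cell types moved with the thymus group too, in which 26.8% of all genes tested were called higher. All 10 tested fibroblast markers were called higher in thymus, with a sum of 48.5 to 141 CPM, although non-tuft cells (95.5 to 107 CPM) and small intestine tuft cells (122 to 142 CPM) had sums as large, chiefly from Fbln1. Dcn averaged 36.2 CPM, Dpt 6.81 CPM and Lum 2.04 CPM in thymus, and Twist2 had no counts in any thymus library. Of the smooth muscle and pericyte markers 7 of 8 were called higher, with Myh11 at 66.4 CPM and Acta2 at 26.7 CPM on average, and of the chondrocyte markers 5 of 5, summing to 16.8 to 45.3 CPM. Markers of thymic epithelium (7 of 7 called higher, 848 to 1167 CPM) and of basal epithelium (4 of 5, 821 to 907 CPM) were the other lists that moved, with Aire, the gene of medullary thymic epithelium that promotes expression of tissue-restricted genes, at 219 CPM on average. Of the other lists 4 of 7 thymocyte (57.1%), 3 of 6 myeloid (50%), 1 of 6 endothelial (16.7%) and 1 of 4 glial markers (25%) were called higher in thymus. The endothelial and glial shares lay below the 26.8% of all genes. Of the 10 tuft markers 0 were called higher and 3 lower in thymus (30%, beside 5.64% of all genes). The part of each of these cell types in the thymus collagen values was not tested.

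**Figure D5:**
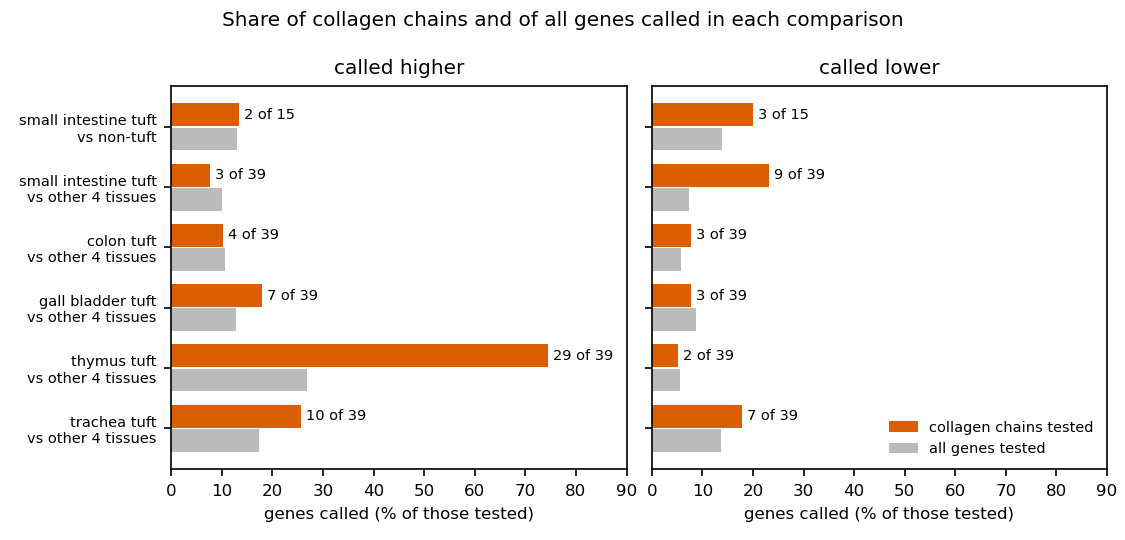
Percentage of tested collagen chains (orange, with the number called) and of all tested genes (grey) called higher (left) or lower (right) in each of the 6 comparisons. The thymus comparison has 29 of 39 chains called higher beside 26.8% of all genes, and the other shares lie nearer to those of all genes.

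Type VI collagen is built from Col6a1, Col6a2 and a longer chain, which is Col6a3 or else Col6a4, Col6a5 or Col6a6. Col6a1 was at 45.4, 23.8, 35.6 and 73.7 CPM in thymus and at or under 0.384 CPM in the other 17 libraries, with no counts in small intestine tuft. Its thymus level was at least 1863-fold that of small intestine tuft, with the latter set to 3 counts. Col6a2 was at 34.9, 27.4, 45.1 and 53.8 CPM in thymus and at or under 0.323 CPM elsewhere. Both were called higher in thymus (adjusted p = 1.74e-08 for Col6a1 and 1.10e-08 for Col6a2, edgeR), and their ratio per kilobase was 0.760 to 1.32. Neither chain overlapped between thymus and any other group, which restates these levels and adds no support. Col6a3 was far lower, at 1.95, 0.773, 5.39 and 1.64 CPM in thymus, with Col6a1 14.5 to 98.8 times as high per kilobase.

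Among the alternatives to Col6a3, Col6a5 was at 10.9, 18.6, 7.83 and 8.18 CPM and Col6a4 at 12.9, 5.89, 3.61 and 9.85 CPM in thymus, both called higher (adjusted p = 2.44e-06 and 7.5e-05, edgeR). Col6a6 had another pattern, with 8.94, 31.1 and 3.0 CPM in gall bladder, 10.7 CPM in trachea library 3 and at most 1.67 CPM in the other libraries. It was called higher in gall bladder (log2 fold 4.79 ± 1.23, adjusted p = 0.00815, and adjusted p = 0.0956 without gall bladder library 3). The colon call of Col6a5 rested on library 1 at 3.86 CPM, where the other 3 held 0.112 to 0.283 CPM (adjusted p = 0.00782, and 0.497 without it). The gall bladder call of Col6a4 rested on library 3 at 1.54 CPM, with 0 and 0.0523 CPM in the others (adjusted p = 0.0316, and 0.746 with a log2 fold of -0.45 without it).

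Most fibrillar chains had their highest group mean in thymus. Col27a1 was at 70.2, 46.2, 57.2 and 30.4 CPM there and at 9.97, 12.1, 0.0927 and 0.247 CPM in trachea, with at most 1.18 CPM in the other tuft libraries (thymus adjusted p = 9.28e-06, edgeR). Col5a3, a chain of type V collagen that sets fibril width, was at 12.7, 15.6, 18.5 and 0.745 CPM in thymus and at or under 0.162 CPM elsewhere (adjusted p = 2.04e-06). Its sister chains Col5a1 (10.2, 4.49, 8.17 and 9.80 CPM) and Col5a2 (4.68, 2.50, 9.17 and 13.3 CPM) were called higher in thymus as well (adjusted p = 1.66e-04 and 1.75e-06). Outside thymus Col5a1 exceeded 0.1 CPM only in trachea library 4, at 3.74 CPM, and Col5a2 was at 0.244 to 0.375 CPM in small intestine tuft and at or under 0.162 CPM in the rest.

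The chains of type I collagen, Col1a1 and Col1a2, which join in 1 molecule in connective tissue, were not in step. In thymus Col1a1 was at 14.3, 0.975, 3.37 and 2.83 CPM and Col1a2 at 0.593, 1.77, 7.32 and 20.3 CPM. The library with the highest Col1a1 had the lowest Col1a2, and their ratio per kilobase ran from 0.126 to 21.7. In colon Col1a1 was at 6.32, 1.26, 6.08 and 0.262 CPM and Col1a2 at or under 0.0808 CPM. Col1a1 was called higher in colon (log2 fold 4.42 ± 1.02, adjusted p = 0.00403, and 0.0625 without the trachea libraries) and in thymus (5.41 ± 1.04, adjusted p = 3.63e-04), and Col1a2 in thymus (adjusted p = 6.78e-06, edgeR). Col3a1, of the fine fibrils of type III, was at 4.08, 5.15, 5.07 and 1.01 CPM in thymus and at or under 0.144 CPM elsewhere. Col2a1, the cartilage collagen, was at 25.4 CPM in gall bladder library 1 and at 0 in the 2 other gall bladder libraries, while thymus libraries held 0.225 to 2.72 CPM. The gall bladder call of Col2a1 (adjusted p = 4.95e-04) went to a log2 fold of -3.81 at adjusted p = 0.308 without that library.

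Other fibril-associated chains split by tissue. Col16a1 was at 27.0, 34.5, 35.1 and 36.6 CPM in thymus, 11.5, 5.31, 16.8 and 9.88 CPM in trachea, 7.96, 8.30, 16.9 and 5.47 CPM in colon and 1.27, 8.16 and 0.0784 CPM in gall bladder. In the small intestine it was at or under 0.226 CPM in tuft and non-tuft cells alike. It was called higher in thymus (log2 fold 3.93 ± 0.63, adjusted p = 6.81e-05) and lower in small intestine tuft (-6.79 ± 1.27, adjusted p = 6.67e-04), while a trachea call (1.78 ± 0.65, adjusted p = 0.0404) was lost under 13 of the left-out libraries. Col12a1, a tendon and dermis collagen that binds type I fibrils, was at 20.4, 44.6, 20.4 and 27.3 CPM in thymus (adjusted p = 6.73e-06), and Col14a1, its relative, at 5.06, 7.91, 19.1 and 13.2 CPM (adjusted p = 9.25e-05, edgeR). Outside thymus Col12a1 exceeded 1 CPM only in trachea library 1 (3.96 CPM) and Col14a1 only in trachea library 3 (7.42 CPM).

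Col20a1, a fibril-associated chain of unsettled function, was present at 1.96 CPM or more in every library outside the trachea. It was at 9.62, 14.7 and 15.4 CPM in gall bladder, 4.30, 12.5, 6.43 and 8.68 CPM in colon, 4.89, 7.5 and 4.67 CPM in small intestine tuft and 2.16, 4.47 and 6.72 CPM in non-tuft cells. Thymus held 3.0, 5.21, 3.99 and 1.96 CPM and trachea 0.421, 0.0314, 0.0309 and 1.80 CPM. Every trachea library lay below all others, and trachea was called lower (log2 fold -3.51 ± 0.98, adjusted p = 0.00978, edgeR). The chain was called higher in no comparison with the mean of the other tissues. Col22a1, which occurs at tissue junctions such as that of muscle and tendon, was at 0.562, 0.0157, 14.2 and 4.27 CPM in trachea and 4.23, 4.54, 1.89 and 2.12 CPM in thymus, and Col19a1 was at 1.76 to 5.91 CPM in thymus and at or under 0.122 CPM elsewhere.

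Col8a1 was the 1 chain with its highest group mean in colon tuft. Its values there were 8.77, 13.1, 15.9 and 15.3 CPM, above every other library. Thymus libraries held 1.99, 1.60, 1.34 and 0.0372 CPM, and gall bladder and trachea libraries no counts. With those groups set to 3 counts, colon was at least 468-fold higher than gall bladder and at least 708-fold higher than trachea. Against the mean of the other 4 tissues the adjusted p was 6.70e-06 (edgeR), while against thymus alone the log2 fold was 3.27 ± 1.18 and did not pass (adjusted p = 0.0553). Thymus too was called higher in Col8a1 than the mean of its other 4 tissues. Col28a1, at 0.185, 0, 0.650 and 0.262 CPM, was also called higher in colon (adjusted p = 0.028, and 0.255 with DESeq2). In all 4 chains were called higher in colon tuft (10.7% of all genes were) and 3 lower (5.78% of all genes), Col4a4, Col9a3 and Col23a1.

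Among the transmembrane collagens Col17a1, the hemidesmosome component of basal epithelial cells, was at 35.0, 44.5, 38.3 and 24.7 CPM in thymus. In trachea it was at 24.6, 2.21, 0.0309 and 57.9 CPM, and elsewhere at or under 2.35 CPM but for 8.99 CPM in gall bladder library 4. It was called higher in thymus (log2 fold 4.40 ± 1.11, adjusted p = 0.00406) and in trachea (3.40 ± 1.11, adjusted p = 0.0232, and 0.216 without trachea library 4). The 5 basal epithelial markers, which include Krt5 and Trp63, summed to 821 to 907 CPM in thymus and 297 to 939 CPM in trachea, against at most 20.4 CPM elsewhere. Their part in the Col17a1 values was not tested. Col23a1 was at 6.76, 0.215 and 10.8 CPM in gall bladder, 2.15 to 4.66 CPM in trachea, 0.689 to 6.29 CPM in thymus and at most 0.370 CPM in colon, where it was called lower (adjusted p = 0.0253, and up to 0.0818 without a colon library). A gall bladder call of Col23a1 (adjusted p = 0.0495) was lost under 13 of the left-out libraries. Col25a1, known from neurons, was at 1.31, 4.78 and 1.76 CPM in small intestine tuft and 2.25, 1.92 and 0.423 CPM in non-tuft cells, and at or under 0.987 CPM in the other libraries. It was called higher in small intestine than in the other tuft tissues (adjusted p = 0.00101, edgeR) and was not called between tuft and non-tuft cells. Col7a1, the anchoring fibril chain, averaged 0.680 CPM in gall bladder to 7.86 CPM in thymus and was called against no mean of the other tissues and not between tuft and non-tuft cells.

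The remaining chains had group means under 5 CPM. Col11a2, a fibrillar chain of cartilage, averaged 0.104 CPM in gall bladder to 4.96 CPM in thymus and ranged there from 0.317 to 8.01 CPM. Its highest value was 8.43 CPM, in trachea library 3, and trachea ranged down to 0.0157 CPM. Small intestine tuft library 3 held 4.55 CPM and colon library 3 held 4.52 CPM. Col10a1, the collagen of growth plate cartilage, peaked at 3.39 CPM in colon library 2 and at 2.46 CPM in thymus library 3. Neither was called in any of the 6 comparisons. Col8a2, Col11a1, Col13a1, Col24a1 and Col26a1 had too few counts to be tested, and none of them exceeded 1 CPM outside thymus. Col24a1 reached 6.25 CPM in thymus library 2 alone, Col13a1 1.67 CPM in thymus library 1 and Col26a1 1.30 and 1.36 CPM in thymus libraries 1 and 4.

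In trachea, whose libraries came from the fewest cells, 10 of 39 chains were called higher (17.3% of all genes were) and 7 lower (13.7% of all genes). Of the 10, Col5a1, Col12a1 and Col14a1 each exceeded 1 CPM in a single trachea library. Leaving that library out turned their fitted log2 folds, which depend on the prior count because small intestine tuft had no counts of these chains, from 4.16 to -2.32, from 2.80 to -2.90 and from 4.42 to -1.40, and limma voom with sample weights gave -0.084, -0.97 and -0.12. The calls of Col4a4 and Col4a5 in trachea kept their direction and their side of the threshold in every alternative that tested trachea. Among markers of other cells the myeloid list summed to 1746 to 3833 CPM in trachea, nearly all of it Lyz2, which was called higher as 1 of the 6 markers. Fibroblast markers summed to 1.94 to 113 CPM over the trachea libraries, with 2 of 10 called higher (Dcn and Pdgfra) and 2 lower, and their part in the trachea values was not tested. Lower in trachea were Col1a1, Col4a1, Col6a2, Col6a5, Col15a1, Col18a1 and Col20a1, with Col15a1 at a log2 fold of -6.25 ± 0.50 (adjusted p = 2.76e-08, edgeR). Without the 2 female pools, 5 chains were called higher (14.4% of all genes were) and 3 lower (8.6% of all genes). In gall bladder 7 chains were called higher (12.7% of all genes were), Col15a1, Col4a1, Col4a2, Col2a1, Col6a6, Col6a4 and Col23a1, and 3 lower (8.79% of all genes), Col5a2, Col18a1 and Col22a1, the last of which was lost without any of the 3 gall bladder libraries (adjusted p up to 0.0956). Glial markers summed to 21.7 to 92.3 CPM in gall bladder, mostly S100b, against at most 23.1 CPM elsewhere, and their part in the gall bladder values was not tested. In small intestine tuft 3 chains were called higher than in the other tissues (10% of all genes were), Col9a3, Col15a1 and Col25a1, and 9 lower (7.45% of all genes), Col4a1, Col4a2, Col4a4, Col4a5, Col6a1, Col6a2, Col12a1, Col14a1 and Col16a1. Several of these small intestine calls were lost when libraries were left out, Col14a1 under 12 of them (adjusted p up to 0.14), Col6a2 under 5 (up to 0.142) and Col12a1 without any of the 3 small intestine libraries (up to 0.0795). Low levels of some of the 9 were not particular to small intestine tuft. Col6a1 averaged 0.197 CPM in colon, 0.0509 in gall bladder and 0.0351 in trachea, beside 44.6 in thymus. In colon and gall bladder Col14a1 averaged 0.0366 and 0.0430 CPM, and Col12a1 0.154 and 0.0259 CPM. Col16a1 differed, at 9.66 CPM on average in colon and 10.9 CPM in trachea.

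Genes that act on collagens were read from 5 lists. Of 24 genes of synthesis and folding 7 were called higher (29.2%, beside 26.8% of all genes) and 3 lower (12.5%, beside 5.64% of all genes) in thymus, and the list's sum was lowest there, at 675 to 827 CPM against 942 to 1828 CPM in the other groups. The collagen chaperone Serpinh1 was at 37.7 CPM in thymus, 10.6 CPM in trachea and under 1 CPM on average elsewhere, and the prolyl hydroxylase genes P4ha3 (14.0 CPM) and P3h2 (20.6 CPM) were higher in thymus as well. P4hb, a subunit of prolyl hydroxylase with wider roles in folding, was lower there (138 CPM against 215 to 818 CPM). In small intestine tuft cells 4 of 20 tested genes of this list were called higher than in non-tuft cells (20%, beside 13% of all genes). These were P4ha1, Plod1, Plod3 and P3h1. Crtap and Serpinh1 were the 2 called lower (10%, beside 13.9% of all genes). Processing and crosslinking genes were called higher in thymus in 10 of 12 (83.3%, beside 26.8% of all genes) and lower in none, with the lysyl oxidase Lox at 10.1 CPM and its relative Loxl3 at 14.0 CPM. They were called higher in trachea in 5 (beside 17.3% of all genes) and lower in 3 (beside 13.7%), with Lox at 20.2 CPM. Of 11 degradation genes 10 (90.9%, beside 26.8% of all genes) were called higher in thymus, among them the gelatinase Mmp9 (9.70 CPM) and the inhibitor Timp3. Timp3 averaged 327 CPM in gall bladder, beside 301 CPM in thymus. The whole list summed to 60.4 to 785 CPM over the gall bladder libraries and to 438 to 587 CPM in thymus. Timp3 was thus at or under 60.4 CPM in at least 1 gall bladder library.

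Partners of type IV in basement membranes were called higher in gall bladder in 6 of 15 (40%, beside 12.7% of all genes) and lower in 4 (26.7%, beside 8.79%), and in thymus in 11 of 15 (73.3%, beside 26.8%) and lower in 1 (6.67%, beside 5.64%). Gall bladder tuft cells held the laminin chains Lama5 at 466 CPM, Lamc1 at 165 CPM and Lamb1 at 87.2 CPM, and the proteoglycan Agrn at 786 CPM, while Nid1, Nid2 and Hspg2 were at or under 0.2 CPM. Within the small intestine Agrn was higher in tuft cells (330 against 121 CPM) and 6 of 11 partners were lower (54.5%, beside 13.9% of all genes). Of 12 collagen receptors 5 (41.7%, beside 26.8% of all genes) were called higher in thymus, with Adgrg6, an adhesion receptor that binds type IV collagen, at 416 CPM there. Itga11, the integrin chain that binds fibrillar collagen, was at 23.7 CPM in small intestine tuft and 0.5 CPM in non-tuft cells, and at 128 CPM in gall bladder. It was called higher in tuft than in non-tuft cells, as 1 of 10 receptors tested (10%, beside 13% of all genes). Another 3 receptors were called lower there (30%, beside 13.9% of all genes). Itga11 was also higher in small intestine and in gall bladder than in the mean of the other tissues. Small intestine had 3 of 12 receptors higher (25%, beside 10%) and 2 lower (16.7%, beside 7.45%). Gall bladder had 3 higher (25%, beside 12.7%) and 1 lower (8.33%, beside 8.79%).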

How the data were processed

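Poly(A) RNA of sorted cells was amplified and sequenced, and the authors deposited raw counts per gene, 1 table a library, aligned with STAR on GRCm38 per the submitters' processing notes, which also name DESeq2. Versions, counting tool, strand setting and annotation were not stated in the labels or notes used here, so reads of overlapping genes cannot be told apart. Identifiers were matched to GENCODE M21: 42548 of 43432 matched, and the other 884 held 0.0986% of counts. Library totals were 25739248 to 73574745 counts. The series states that its authors dropped 1 non-tuft library and 1 tuft library each of small intestine and gall bladder for quality.

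Counts were filtered with filterByExpr, TMM-scaled and fitted with the quasi-likelihood test of edgeR 4.0.16 in R 4.3.3 over all genes, with Benjamini-Hochberg adjustment. The small intestine comparison used 6 libraries (16063 genes) and the tissue comparisons the 18 tuft libraries (19850 genes), each tissue against the unweighted mean of the other 4 on the log scale and in 10 pairs. A call needs an adjusted p under 0.05 and at least a 2-fold change. The scripts were tested on simulated data. Alternatives were DESeq2 1.42.0, limma 3.58.1 voom with sample weights, RLE scaling, other filters, 1 fit of all 21 libraries, a replicate block, no female trachea pools, each library left out and, chosen after seeing the data, no trachea libraries. The labels do not say whether replicate numbers pair libraries across groups, and the main fits treat libraries as unpaired. The members and lists were chosen with earlier results of these data known, although the rule for members reads symbols only. Every called chain may be named, a chain gets its value in every library where it was called and a group mean reached 5 CPM, at most 12 a comparison, and head-to-head pairs and partners of 1 molecule are always given. The other genes of a list are named where called or among its 4 most abundant. Upstream sequences came from a RefSeq promoter table of GRCm38.p6, in which 35 of the 44 chains matched.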

Additional observations from a re-analysis of the deposited data

Results flagged for a closer look

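Groups of 4 libraries were tested for chains given in every library, if the highest value in the group was at least 1 CPM. Of 50 such groups, 7 had 1 library far from the other 3 by the 95% limit of Dixon's ratio of gap to range. A group otherwise near 0 enters only through a high library, so the number of flags cannot be set against a rate by chance. In trachea these were library 1 for Col12a1 at 3.96 CPM, library 3 for Col14a1 at 7.42 CPM, library 4 for Col5a1 at 3.74 CPM and library 3 for Col6a6 at 10.7 CPM, with the other 3 trachea libraries at or under 0.0562 CPM for each chain. In colon library 1 stood apart for Col18a1 at 1.64 CPM and for Col6a5 at 3.86 CPM, and in thymus library 1 for Col6a6 at 1.67 CPM. Among the groups tested, no library was flagged for Col15a1, Col9a3, Col4a4 or Col4a5. The small intestine tuft, non-tuft and gall bladder groups have 3 libraries each and were not tested, so none of their libraries could be flagged.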

How the results depend on the processing

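Counts of called chains moved by more than 1.5 times in these cases. Shares of all genes called moved as well and are given beside them. For chains lower in small intestine tuft than in non-tuft cells (3 in the report) the count was 7 without a filter on low counts, 1 with a filter of 5 CPM in 3 libraries, 5 with limma voom and 3 to 5 when each library was left out. The share of all genes was 13.9% in the report, 9.83% without a filter, 13.9% with the 5 CPM filter and 15.6% with voom. For chains lower in small intestine than in the other tissues (9) it was 16 with DESeq2, 20 with voom, 14 without the trachea libraries and 5 to 10 with each library left out. Here the share of all genes rose from 7.45% to 13.5% with DESeq2, 14.9% with voom and 9.77% without trachea. Colon gave 2 higher chains (4 in the report) without the trachea libraries, and 7 lower chains (3 in the report) with DESeq2, 6 with voom and 1 to 4 with a library left out. Of all genes 10.6% were higher in colon without trachea (10.7% in the report). The lower share was 10.3% with DESeq2 and 8.98% with voom (5.78% in the report). Gall bladder gave 13 lower chains (3 in the report) with DESeq2, 1 with voom, 6 with all 21 libraries, 11 without trachea and 1 to 4 with a library left out. The share of all genes lower in gall bladder was 8.79% in the report and 18% with DESeq2. It was 3.06% with voom, 10.5% with all 21 libraries and 15% without trachea. Trachea gave 4 higher chains (10 in the report) with voom and 5 without the female pools, and 14 lower chains (7 in the report) with DESeq2, 3 with voom and 3 without the female pools. Of all genes 9.33% were higher in trachea with voom and 14.4% without the female pools (17.3% in the report). The lower share was 19.2% with DESeq2, 7.79% with voom and 8.6% without the female pools (13.7% in the report). Chains higher in 1 tissue than in each other tissue (11) numbered 18 with voom and 18 without trachea, 16 of them in thymus and the 11 included each time, and 7 to 13 with a library left out. For these last counts the share of all genes under each alternative is not given.

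With the replicate number as a block, 2 chains were higher in colon, 3 in gall bladder and 6 in trachea (4, 7 and 10 in the report). The shares of all genes were 9.66%, 8.28% and 11.8% (10.7%, 12.7% and 17.3% in the report). Whether the number marks a shared mouse or day is not known. Of 45 same-numbered pairs of libraries, 1 had deviations that correlated above 0.1 (range -0.0324 to 0.127). The median was -0.000668, beside -0.00248 for other pairs, while the colon and thymus pairs were at 0.0635 to 0.0803. Low correlations cannot exclude a shared mouse or day.

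Of 82 single values, 51 kept their direction and side of the threshold in every alternative. The log2 fold turned in sign for Col14a1 in trachea (-0.12 with voom, -0.93 without female pools, -1.40 to 4.84 with a library left out), for Col5a1 in trachea (-0.084 with voom, -4.40 without female pools, -2.32 to 4.62 with a library left out), for Col12a1 in trachea (-0.97 with voom, -2.90 to 3.27 with a library left out), and in gall bladder for Col2a1 (-3.81 to 8.36) and Col6a4 (-0.45 to 4.35) with a library left out. Each of the 5 rests on 1 library, and apart from these the cause was not tested. Trachea libraries of 130 to 453 cells and chains under 1 CPM limit what could be tested.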
